A study of Homo sapiens with 6 samples.

Results

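The 9 genes described here, SNAI1, SNAI2, ZEB1, ZEB2, TWIST1, CDH1, CDH2, VIM and FN1, are a standard set for the epithelial-mesenchymal transition. They were chosen by name from 20033 protein-coding genes and not by a rule on measured values, though earlier results of these data were known. For each gene the locus was its body plus 10 kb on either side (GENCODE release 44, hg38), and the 9 loci held 22 of the 49527 regions obtained when the open regions of all 6 libraries were merged.

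The study used ATAC-seq, in which a transposase cuts accessible DNA, to ask how a change in labile zinc alters open chromatin in wild-type MCF10A cells, a non-tumorigenic human mammary epithelial line. All cells were first held in phosphate-free buffered salt solution. They were then given for 30 min either that buffer alone (control), 50 µM of the zinc chelator tris(2-pyridylmethyl)amine (TPA), or 30 µM ZnCl2, with 2 libraries per condition. The deposited lists give, for each library, regions that the HMMRATAC caller annotated as open and a whole-number score for each region. The study calls the 2 libraries biological replicates in one place and technical replicates in another, so every p-value measures only the spread between these libraries. The cells are 1 line, so no comparison reaches beyond it.

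The lists differed in length within each condition. Control replicate 1 held 25031 regions and control replicate 2 held 44641, TPA held 35902 and 41376, and ZnCl2 held 38069 and 18887. Read depth was not known. A site is called open where a listed region covers it. Reads were not examined, so a site without a region is not shown to be closed. The part of list length in the counts that follow was not tested beyond the values at equal length. Scores were compared as percentiles, the percentage of regions in the same library with a lower score. Percentiles also moved with list length. The median over all open protein-coding starts was 65.1 and 69.2 in the 2 shortest lists and 80.1 in the longest. For the genes named at the outset, percentile differences are therefore also given at equal length where a gene could still be compared. For the further gene lists and cell markers described later, percentile differences are given on full lists only. The part of list length in those differences was not tested. With 2 libraries against 2, a two-sided exact permutation test cannot go below p = 0.333. The TPA and ZnCl2 comparisons share the control libraries. In a bulk library a lower score cannot tell fewer cells with an open site from a less open site in each cell.

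In the epithelial-mesenchymal transition, epithelial cells lose E-cadherin junctions and take up a motile, mesenchymal form. The SNAI and ZEB families are zinc-finger repressors that bind E-box sequences in the CDH1 promoter, and TWIST1 is a basic helix-loop-helix factor acting in the same program. CDH1 encodes E-cadherin of epithelial junctions, CDH2 encodes the N-cadherin that replaces it, VIM encodes the intermediate filament vimentin and FN1 the matrix protein fibronectin. Basal-type mammary lines such as MCF10A are known to express some of the mesenchymal genes in culture.

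The start sites of SNAI2 and VIM were open in all 6 libraries, which held for 43.0% of protein-coding genes. The ZEB2 start was open in none, as were 36.9% of protein-coding starts. SNAI1, CDH2 and FN1 had an open start in 5 libraries, and ZEB1, TWIST1 and CDH1 in 3. By library, 4 and 7 of the 9 starts were open in control replicates 1 and 2, 7 and 7 in the TPA libraries, and 8 and 3 in the ZnCl2 libraries. The 2 control libraries and the 2 ZnCl2 libraries thus differed from each other by more than any pair of condition means. The 2 shortest lists gave the 2 lowest counts. Over all protein-coding genes, 46.3% to 60.8% of starts were open in a library.

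**Figure D1:**
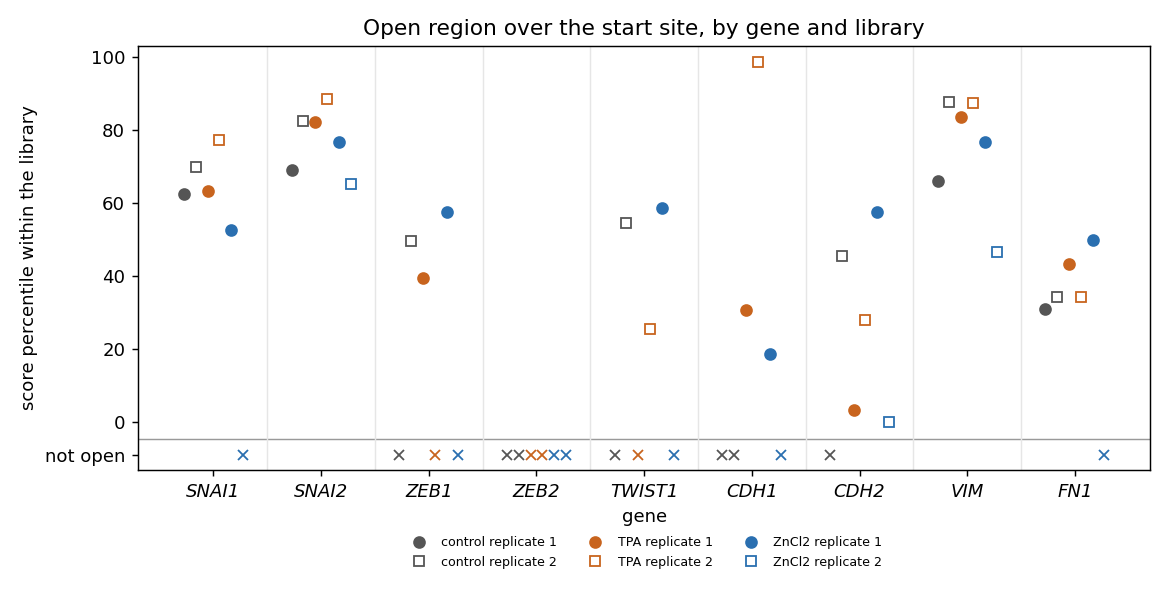
Score percentile (y axis) of the region over the start site of each gene (x axis) in each library, with filled circles for replicate 1, open squares for replicate 2, and grey, orange and blue for control, TPA and ZnCl2. Crosses mark libraries in which the start was not open. SNAI2 and VIM have 6 points each, and ZEB2 has 6 crosses.

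Sequence upstream of the start is shown for the genes whose start lay in an open region and for which the RefSeq promoter set (hg38) held a window at that start. These were ZEB1, CDH2, VIM and FN1. SNAI1, SNAI2, TWIST1 and CDH1 had no window, and the ZEB2 window held transcribed bases throughout. The stretches run 5′ to 3′ on the gene's strand, without bases that any transcript annotates as coding or untranslated. Capitals mark CACCTG (or CAGGTG on the other strand), the E-box form bound by SNAI and ZEB factors, GGGCGG (or CCGCCC), the GC box, and CCAAT (or ATTGG).
ZEB1, chr10:31318966-31319124, plus strand, 250 to 92 bases upstream: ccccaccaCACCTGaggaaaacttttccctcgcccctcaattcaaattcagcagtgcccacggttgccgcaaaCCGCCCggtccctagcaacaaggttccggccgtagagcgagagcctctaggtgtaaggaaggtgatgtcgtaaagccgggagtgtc
CDH2, chr18:28177131-28177380, minus strand, 250 to 1 bases upstream: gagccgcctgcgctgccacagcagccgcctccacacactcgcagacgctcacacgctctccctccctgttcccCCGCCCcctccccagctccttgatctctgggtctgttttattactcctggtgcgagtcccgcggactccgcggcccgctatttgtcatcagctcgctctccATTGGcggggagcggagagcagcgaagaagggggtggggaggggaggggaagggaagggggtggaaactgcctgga
VIM, chr10:17227991-17228240, plus strand, 250 to 1 bases upstream: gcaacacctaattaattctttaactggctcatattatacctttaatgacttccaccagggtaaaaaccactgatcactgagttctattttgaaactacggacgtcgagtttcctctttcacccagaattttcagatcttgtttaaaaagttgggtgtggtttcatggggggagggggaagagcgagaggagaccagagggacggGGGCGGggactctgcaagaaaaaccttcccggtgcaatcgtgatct
FN1, chr2:215436074-215436318, minus strand, 250 to 6 bases upstream: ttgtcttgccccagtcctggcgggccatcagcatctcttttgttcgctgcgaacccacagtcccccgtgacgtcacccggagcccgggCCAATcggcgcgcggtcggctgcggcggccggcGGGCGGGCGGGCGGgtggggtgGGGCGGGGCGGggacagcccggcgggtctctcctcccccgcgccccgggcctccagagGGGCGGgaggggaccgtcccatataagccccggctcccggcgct
The E-box was found at 2 places in the 250 bases upstream of ZEB1, as CACCTG 242 bp and as CAGGTG 85 bp upstream, of which the second lies in transcribed sequence that is not shown. It was not found upstream of ZEB2, CDH2, VIM or FN1. Of 35116 promoter windows of the same length, 17.5% held it on either strand. GC boxes numbered 6 upstream of FN1, some of them overlapping, and 1 each upstream of ZEB1, CDH2 and VIM, and 42.6% of all windows held at least 1. The CCAAT letters occurred at 1 place each upstream of CDH2 and FN1 and in 32.0% of windows. The TATA box TATAAA (10.7% of windows) and the metal response element cores TGCACNC (9.87%) and TGCGCNC (16.8%), bound by the zinc-sensing factor MTF1, were in none of these 5 windows. These matches describe letters only.

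Among the SNAI factors, SNAI2 had an open start in every library. Its region, within chr8:48919261-48922700, had percentiles of 69.2 and 82.6 in control, 82.1 and 88.4 in TPA, and 76.8 and 65.1 in ZnCl2. The median open protein-coding start was at 69.2 and 80.1 in control, 70.3 and 74.7 in TPA, and 77.4 and 65.1 in ZnCl2, so SNAI2 was above it in control replicate 2 and both TPA libraries and at or below it in the other 3. Both TPA values were above both ZnCl2 values, and TPA overlapped control by less than 1 percentile point. The TPA mean was 85.3 ± 4.43 (SD, n = 2) and the ZnCl2 mean 71.0 ± 8.27, a difference of 14.3 percentile points (two-sided exact permutation p = 0.333, the smallest possible). With lists of equal length the difference was 11.1, and without ZnCl2 replicate 2 it was 8.46. Both TPA regions (2500 and 2470 bp) were narrower than both control regions (2540 and 2940 bp, exact permutation p = 0.333). The ZnCl2 regions were 3130 and 1830 bp wide, a spread that took in both other conditions. The SNAI2 region also covered the start of a divergent long non-coding RNA 74 bp upstream. It was AT-rich for a promoter, with a GC content of 45.2%, above that of 6.67% of the 10927 merged regions over protein-coding starts, whose median was 53.8%.

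SNAI1 (chr20:49982001-49984580) was open over its start in every library but ZnCl2 replicate 2. Percentiles were 62.6 and 69.8 in control, 63.4 and 77.4 in TPA, and 52.5 in ZnCl2 replicate 1. TPA and control overlapped, with a difference in means of 4.21 percentile points (exact permutation p = 0.667). In ZnCl2 replicate 2 the nearest region lay 45431 bp downstream of the start. The SNAI1 region was GC-rich at 63.1%, above 92.1% of regions over protein-coding starts. It held 2.33 E-boxes of the CACCTG form per kb, on either strand, against a median of 0.962. The other start regions of the set ran from 0 at FN1 to 2.24 at CDH1.

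ZEB1 and ZEB2, the homeodomain-bearing zinc-finger repressors, had lower-scoring or displaced regions. The ZEB1 start was covered in control replicate 2, TPA replicate 1 and ZnCl2 replicate 1, at percentiles of 49.7, 39.6 and 57.5 and widths of 3120 to 3170 bp. In control replicate 1 and TPA replicate 2 the region was 910 and 970 bp wide and ended 66 bp short of the start. Its percentile there was 27.7 and 42.0. These shorter regions hold the printed upstream stretch, with the E-box 242 bp upstream, and the 5′ end of the gene record, which lies 721 bp upstream of the start used here. 1 library of each condition covered the start, so no condition stood apart. ZnCl2 replicate 2 had no region in the ZEB1 locus. The merged region held the starts of 17 of the 23 annotated ZEB1 transcripts and that of the antisense RNA ZEB1-AS1.

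No library had a region over the ZEB2 start. A region 1949 to 4468 bp downstream (chr2:144515651-144518170) was open in control replicate 2, both TPA libraries and ZnCl2 replicate 1, at percentiles of 37.9, 48.6, 53.2 and 41.9. It covered the start of the antisense RNA ZEB2-AS1 and the starts of 15 of the 50 annotated ZEB2 transcripts, so the gene was not without an open start by every annotation. Its GC content of 63.1% was above that of 96.7% of all merged regions. The 3 other ZEB2 regions lay far from it. The one beyond the end of the gene, 161459 to 162568 bp from the start, was open in every library but ZnCl2 replicate 2, with percentiles of 15.8 to 58.6. An intronic region at 105069 to 106458 bp was open in 4 libraries, and another downstream region in control replicate 2 alone. Regions open in 1 library were 16.7% of all merged regions and 1 of the 22 here.

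TWIST1 was open over its start in control replicate 2, TPA replicate 2 and ZnCl2 replicate 1, at percentiles of 54.6, 25.7 and 58.7. Each condition again supplied 1 library. A second region at the far end of the gene record, 96176 to 97765 bp from the start, was open in control replicate 2 (22.2) and in both TPA libraries (39.6 and 32.2) and in neither ZnCl2 library. An intronic region at 37926 to 38795 bp was open in 3 libraries at percentiles of 0 to 12.1, the bottom of the lists.

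**Figure D2:**
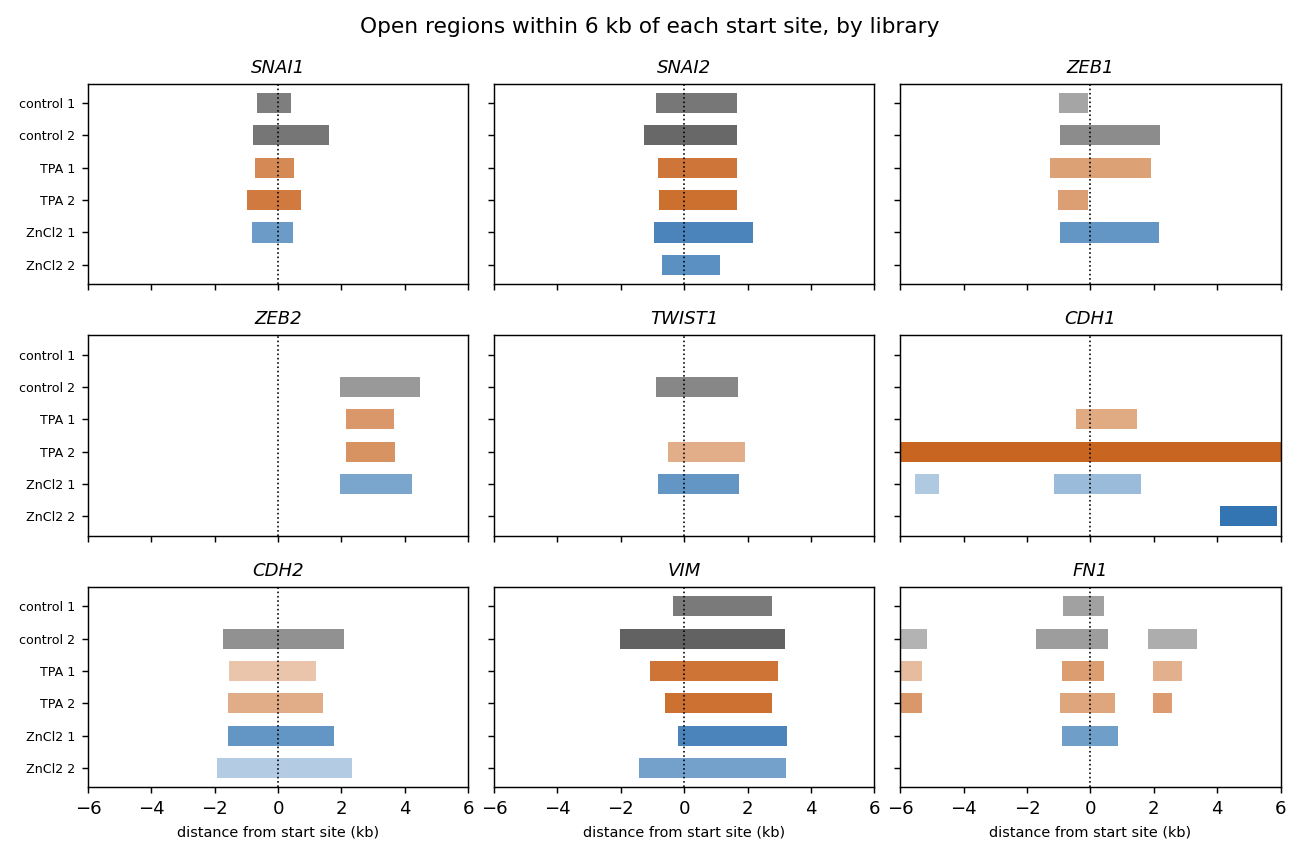
Open regions within 6 kb of each start site (x axis, distance in kb, positive into the gene; dotted line at the start), with 1 row per library and darker bars for higher score percentiles. The ZEB1 regions of control replicate 1 and TPA replicate 2 end just before the start, the ZEB2 regions begin after it, and the CDH1 region of TPA replicate 2 runs past both edges.

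CDH1, the epithelial cadherin, was the 1 gene of the 9 whose start was open in both TPA libraries and in neither control library. This pattern held for 0.245% of protein-coding genes, and the reverse, open in both control and neither TPA library, for 0.559% of genes and for none of the 9. Without control replicate 2 it held for 2 of the 9. The 2 TPA regions were unlike each other. In TPA replicate 1 the region was 1900 bp wide, from 441 bp upstream to 1458 bp downstream, at percentile 30.8. In TPA replicate 2 it was 16990 bp wide, from 7561 bp upstream to 9428 bp downstream, at percentile 98.6. That library held 998 regions over 10 kb, 2.41% of its list, against 0.116% to 0.437% in the other libraries, and 801 of its regions were wider than the CDH1 one. Both control libraries lacked a called region near the start, the nearest being 29032 bp upstream in replicate 1 and 18249 bp downstream in replicate 2. Whether the start was closed in control or a call was missed was not tested.

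With ZnCl2 the CDH1 start was open in replicate 1, by a region of 2750 bp at percentile 18.6. Replicate 2 had instead a region of 1810 bp at 4089 to 5898 bp downstream, at percentile 93.5, which covered the annotated 5S rRNA pseudogene RNA5SP429. The regions of the 2 ZnCl2 libraries did not touch and were joined in the merged region chr16:68729731-68746720 by the wide region of TPA replicate 2. As merged, this was 1 of the 22 regions open in both TPA and neither control library (2.04% of all merged regions) and the same 1 of 22 open in both ZnCl2 and neither control library (0.172%). When a library had to cover at least 50% of a merged region to count as open in it, neither count had a member (0 and 0). Without the wide region of TPA replicate 2, an alternative chosen after seeing the data, both were 0 as well, and so was the count of starts open in both TPA and neither control library. No region of the 9 loci was open in both control libraries and neither TPA library (0.703% of all merged regions) or neither ZnCl2 library (1.73%). Without control replicate 2 the regions open in TPA and not control were 12 and those open in ZnCl2 and not control were 2. Without TPA replicate 2 the latter were 0, and the regions open in control and not ZnCl2 were 6 without control replicate 1 and 5 without ZnCl2 replicate 1.

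Inside CDH1, intronic regions lay at 18149 to 20378 bp and at 22849 to 24818 bp from the start. The first had percentiles of 45.6 in control replicate 2, 62.1 and 59.9 in TPA and 30.3 in ZnCl2 replicate 1, and the second ran from 23.9 to 38.3 in the same 4 libraries. Another, at 51979 to 53738 bp, was open in control replicate 2 and both TPA libraries at 12.1, 13.1 and 30.1, and in neither ZnCl2 library. A region beyond the gene's end covered the start of TANGO6, the next gene, in every library but ZnCl2 replicate 2. Every region of the CDH1 gene body that was open in control was open in replicate 2, the library with the longest list.

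**Figure D3:**
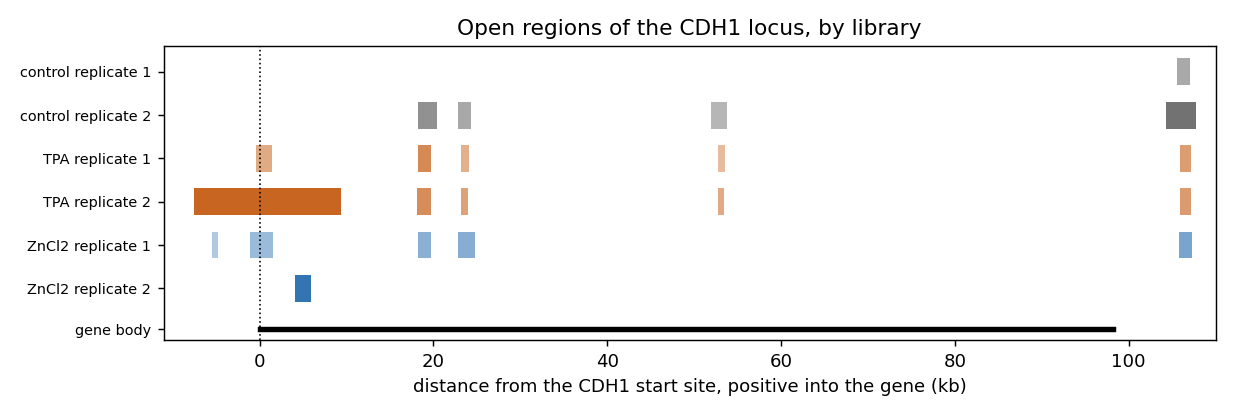
Open regions of the CDH1 locus in each library, by distance from the start site in kb (x axis, positive into the gene), with darker bars for higher score percentiles and the gene body in black. Control libraries have no region at the start, TPA replicate 2 has one of 16990 bp, and the region of ZnCl2 replicate 2 lies downstream of that of ZnCl2 replicate 1.

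VIM, of the mesenchymal genes, was open over its start in all 6 libraries, in a region within chr10:17226201-17231490 that also held the start of the antisense RNA VIM-AS1. Percentiles were 66.1 and 87.7 in control, 83.6 and 87.4 in TPA, and 76.8 and 46.6 in ZnCl2. Both TPA values were above both ZnCl2 values and lay within the control range. TPA averaged 85.5 ± 2.73 (SD, n = 2) and ZnCl2 61.7 ± 21.4, a difference of 23.8 percentile points (exact permutation p = 0.333). With lists of equal length it was 20.7, and it was 8.71 without ZnCl2 replicate 2 and 38.9 without ZnCl2 replicate 1. The lower ZnCl2 value was that of replicate 2, whose list was the shortest. The VIM regions were 3120 to 5230 bp wide and overlapped between conditions.

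CDH2 was open over its start (chr18:28174811-28179050) in every library but control replicate 1. Percentiles were 45.6 in control replicate 2, 3.39 and 27.9 in TPA, and 57.5 and 0 in ZnCl2. The ZnCl2 pair thus ran from above every other value to the lowest score that its list held, and took in both TPA values (difference -13.1, exact permutation p = 1, and 15.6 without ZnCl2 replicate 1). Both TPA regions (2750 and 2990 bp) were narrower than both ZnCl2 regions (3330 and 4240 bp, exact permutation p = 0.333). The region was GC-rich, at 61.5%. An intronic region at 61250 to 62869 bp was open in control replicate 2, both TPA libraries and ZnCl2 replicate 1, at percentiles of 21.2 to 54.6.

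FN1 was open over its start (chr2:215435181-215437790, shared with the divergent transcript FN1-DT) in every library but ZnCl2 replicate 2. Percentiles were 31.0 and 34.3 in control, 43.4 and 34.3 in TPA, and 49.9 in ZnCl2 replicate 1. Both TPA values were above both control values, but the gap between the nearest ones was 0.061 percentile points. The means were 38.9 ± 6.38 in TPA and 32.6 ± 2.35 in control (SD, n = 2, difference 6.24, exact permutation p = 0.333). Without TPA replicate 1 the difference was 1.72, and with lists of equal length FN1 could not be compared. The 3 other FN1 regions shared one pattern. They lay 6182 to 5143 bp upstream of the start, 1808 to 3367 bp downstream and 24158 to 26617 bp downstream, and each was open in control replicate 2 and both TPA libraries and in neither ZnCl2 library nor control replicate 1. Their percentiles were 14.6 to 22.2 in control replicate 2, 13.1 to 23.9 in TPA replicate 1 and 43.7 to 50.3 in TPA replicate 2.

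**Figure D4:**
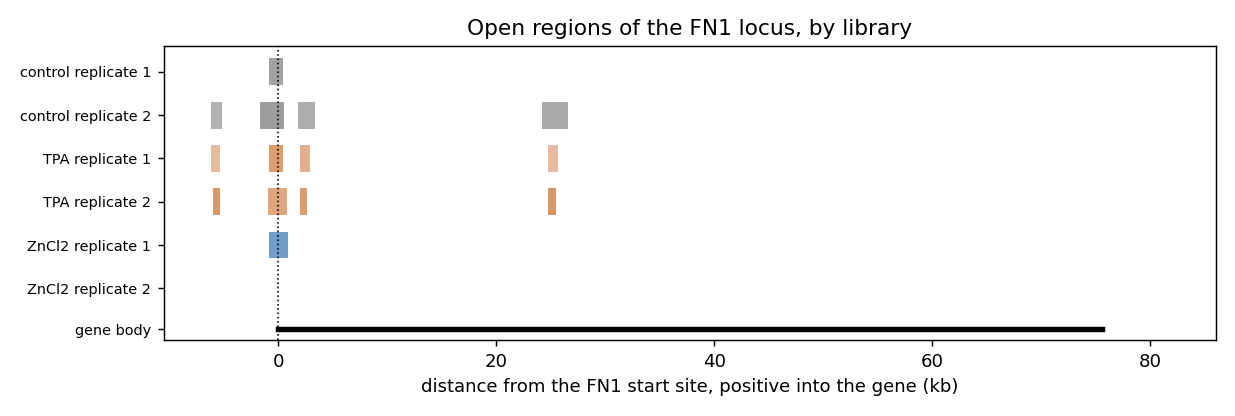
Open regions of the FN1 locus in each library, by distance from the start site in kb (x axis, positive into the gene), with darker bars for higher score percentiles and the gene body in black. The start region is open in 5 libraries, and the 3 other regions are open in control replicate 2 and both TPA libraries.

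Set side by side, percentiles could be compared between TPA and control for 4 genes with an open start in all 4 libraries. FN1 had both TPA values above both control values (1 of 4, against 11.4% of 9726 protein-coding genes), and none had both below (22.3%). The median difference over these 4 genes was 7.41 percentile points, against -0.158 over all 9726. SNAI1, SNAI2, VIM and FN1 all had a higher TPA mean, by 4.21 to 9.40, yet for SNAI1, SNAI2 and VIM the TPA and control values overlapped. With lists of equal length the 3 differences were 0.953, 11.3 and 7.57, and leaving out 1 library turned that of SNAI1 to -2.77 (without TPA replicate 2) and that of VIM to -2.23 (without control replicate 1). For width, 1 of the 4, SNAI2, had both TPA regions narrower than both control regions (16.6% of genes) and none had both wider (1.90%). Without control replicate 2 the genes with higher TPA percentiles were 4 and those with wider TPA regions 3, without TPA replicate 1 those with higher percentiles were 3, and without control replicate 1 lower percentiles were found for 2 and narrower regions for 5.

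Between ZnCl2 and control, SNAI2 and VIM could be compared. Neither had both ZnCl2 percentiles above (2.60% of 8823 genes) or below (13.1%) both control values, and the differences were -4.91 and -15.3 (exact permutation p = 0.667 each). The SNAI2 difference was 0.937 without ZnCl2 replicate 2, 1.79 without control replicate 2 and 0.212 with lists of equal length, so its direction was not stable. The VIM difference was -0.138 without ZnCl2 replicate 2, -30.4 without ZnCl2 replicate 1 and -13.2 at equal length. Neither had both ZnCl2 regions wider (10.9%) or narrower (2.47%) than both control regions. No start among the 9 was open in both ZnCl2 and neither control library (0.0449% of genes) or the reverse (0.115%). Leaving out 1 library moved each of these 6 counts from 0 to at most 2, the highest being lower ZnCl2 percentiles without control replicate 1 or ZnCl2 replicate 1, and starts open in control and not ZnCl2 without ZnCl2 replicate 1.

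Between TPA and ZnCl2, SNAI2 and VIM of 3 comparable genes had both TPA percentiles above both ZnCl2 values (21.4% of 8821 genes), and none had both below (17.8%). The median difference of the 3 was 14.3 percentile points, against 1.71 over all 8821 genes. CDH2 was the 1 gene with both TPA regions narrower, which held for 55.2% of genes, and none had both wider (2.56%). No start was open in both TPA and neither ZnCl2 library (0.724%) or the reverse (0.614%). Without ZnCl2 replicate 2 higher TPA percentiles were found for 4 genes, lower ones for 2 and narrower TPA regions for 3, and without ZnCl2 replicate 1 the starts open in TPA and not ZnCl2 were 3.

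Among the regions, the largest count between 2 conditions was that of TPA against ZnCl2, away from the start sites. Of the 22 regions, 5 were open in both TPA and neither ZnCl2 library, namely 3 at FN1 and 1 each at TWIST1 and CDH1, and none the reverse. Over all merged regions these shares were 9.73% and 0.991%. All 5 were also open in control replicate 2 and not in control replicate 1, a pattern of 6.56% of all merged regions, so TPA and control cannot be told apart at them. None of them covered a start of a protein-coding transcript. The 5 regions were missing from the 2 shortest lists, control replicate 1 and ZnCl2 replicate 2, and from ZnCl2 replicate 1. Without ZnCl2 replicate 1 the count was 15, with the upper 50% of each list or lists of equal length it was 1, and with the 50% coverage rule it was 2. At equal length the reverse count was also 1.

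Of the remaining regions, 2 were open in all 6 libraries, the starts of SNAI2 and VIM, where 32.0% of all merged regions were. A further 5 were open in every library but ZnCl2 replicate 2 (11.3% of all) and 5 in every library but control replicate 1 and ZnCl2 replicate 2 (9.52%). Control replicate 1 and ZnCl2 replicate 2, the shortest lists, had 31.8% and 18.2% of the 22 regions open, against 47.6% and 36.7% of all merged regions. Control replicate 2 and the TPA libraries had 95.5%, 90.9% and 90.9% open, against 86.9%, 68.3% and 78.9% of all. ZnCl2 replicate 1 was at 72.7% and 72.4%. The 36 calls over starts were wider and higher-scoring (medians of 2655 bp and percentile 57.5) than the 53 other calls in the loci (1190 bp and 32.5), with no test.

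**Figure D5:**
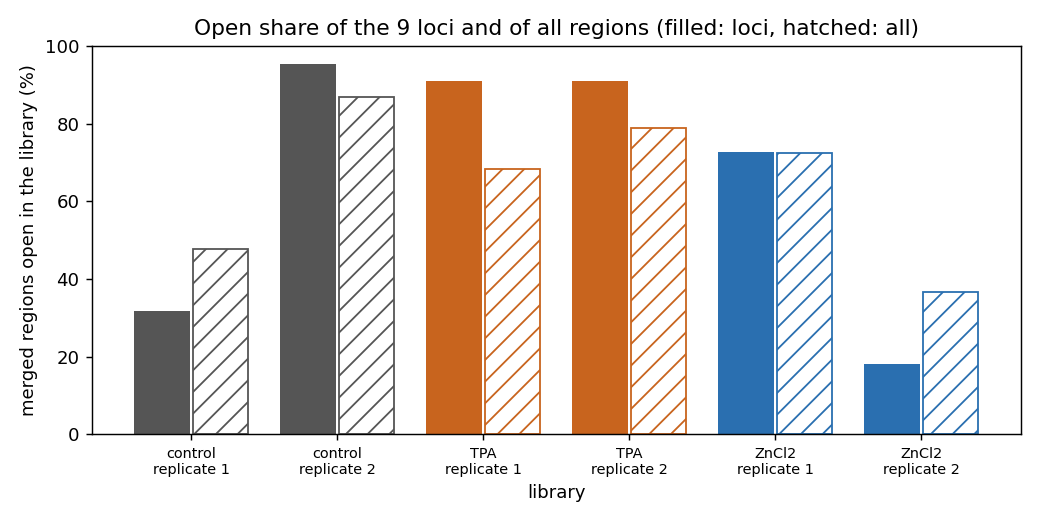
Percentage of merged regions open in each library (y axis), with filled bars for the 22 regions of the 9 loci and hatched bars for all 49527 merged regions, colored by condition. The filled bar is the lower of the pair in control replicate 1 and ZnCl2 replicate 2 and the higher in control replicate 2 and both TPA libraries.

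When each list was reduced to its 18887 highest-scoring regions, the length of the shortest, the starts open were 4 and 3 of 9 in control, 3 and 4 in TPA and 7 and 3 in ZnCl2. SNAI2 and VIM again had an open start in all 6 libraries and SNAI1 in 5. CDH2 was then open in both ZnCl2 libraries and in no other, FN1 in control replicate 1 and ZnCl2 replicate 1, ZEB1 and TWIST1 in ZnCl2 replicate 1, and CDH1 in TPA replicate 2. The ZnCl2 replicate 2 list was not shortened and kept its lowest scores, among them the CDH2 region at percentile 0. The share of all genes with the CDH2 pattern at this length is not given, so the pattern cannot be read as one of ZnCl2. At this length, 41.0% to 48.2% of all protein-coding starts were open in a library.

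The genes whose 6 percentiles were most like those of SNAI2 and VIM were NOL7, a nucleolar protein gene, and DDHD2, a phospholipase gene. The root mean square differences over the 6 libraries were 1.80 and 1.66 percentile points, the smallest among 8612 genes each. NOL7 had percentiles of 69.2, 82.6, 83.6, 86.5, 80.2 and 66.6 in the order control, TPA and ZnCl2, with replicate 1 first. DDHD2 had 66.1, 85.0, 82.9, 84.9, 78.0 and 46.6.

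Around these 9 genes, 3 further lists describe the same program. Of 20 other epithelial genes, of junctions, polarity, keratins and epithelial splicing, 6 had an open start in all 6 libraries (TJP1, DSP, JUP, PKP3, ESRP2 and KRT18) and 3 in none. DSP and PKP3 had both TPA percentiles below both control values. That was 2 of 8 comparable genes, near the 22.3% over 9726 protein-coding genes, and none had both above (11.4%). DSP had 60.8 and 74.1 in control and 15.9 and 45.4 in TPA, a difference of -36.8. For PKP3 the difference was -6.97. KRT8, a simple-epithelium keratin, was open over its start in both control and neither TPA library (0.559% of all genes).

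Of 20 further mesenchymal genes, 6 had an open start in all libraries and 9 in none. Of 7 that could be compared, 3 had both TPA percentiles above both control values (11.4% of all genes), among them TNC and S100A4. None had both below (22.3%). TNC, a matrix glycoprotein gene, had 34.2 and 52.3 in control and 69.2 and 64.8 in TPA, a difference of 23.8. For S100A4, near the top of each list, the difference was 2.20 (98.0 and 98.8 in TPA against 96.9 and 95.4). With ZnCl2 no gene was above control and S100A4 was below (94.4 and 88.2 against 96.9 and 95.4), 1 of 6 comparable genes against 13.1% of all. Against ZnCl2, both TPA percentiles were higher for TNC, the integrin gene ITGA5 and S100A4, by 33.2, 28.1 and 7.08, out of 6 genes, and lower for none. Of the 6 epithelial genes with the same comparison, none was higher or lower in TPA, and none differed so between ZnCl2 and control. Of 10 other transcription factors of the transition, 4 were open in all libraries. TCF3, an E-protein gene, was below control with TPA (94.7 and 91.7 against 97.8 and 97.3) and with ZnCl2 (92.1 and 89.0). That was 1 of 5 comparable genes with TPA (22.3% of all genes) and 1 of 4 with ZnCl2 (13.1%), and none was above control. For all of these 3 lists the exact permutation test again cannot go below p = 0.333, and the percentages of all genes given above for each direction apply.

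The label of mammary epithelial cells was checked against marker genes, whose counts stand beside the same percentages of all genes, 43.0% open in all 6 libraries and 11.4% with both TPA percentiles above both control values. Of 8 basal mammary markers, 4 were open over the start in all 6 libraries (among them ITGA6, ITGB4 and LAMB3), and between 4 and 7 in each library. TP63 was open in none at the 1 start used per gene, and any other TP63 start was not examined. KRT17, ITGA6 and KRT5 had both TPA percentiles above both control values, by 53.5, 49.1 and 25.9 percentile points, out of 6 that could be compared. Their control percentiles, replicate 1 first, were 0 and 42.8, 13.1 and 63.9, and 37.1 and 45.6. In TPA they were 76.0 and 73.8, 84.2 and 91.1, and 76.0 and 58.6. Control replicate 1, 1 of the 2 shortest lists, held the lower value of each, for KRT17 the lowest score in the list. LAMB3 had both ZnCl2 percentiles below both control values (difference -11.9), 1 of 4 comparable genes against 13.1% of all genes. ITGA6 and LAMB3 had both TPA percentiles above both ZnCl2 values, by 40.9 and 14.9. That was 2 of 4 comparable genes against 21.4% of all genes. Of 7 luminal markers 3 were open in all libraries (KRT18, GATA3 and FOXA1) and ESR1, PGR and KRT19 in none. FOXA1 had both TPA percentiles above those of control and of ZnCl2, by 31.2 and 38.6. That was 1 of 3 comparable genes each time, against 11.4% and 21.4% of all genes. Fibroblasts also express VIM and FN1. Of 5 fibroblast markers at most 1 was open in any library, with PDGFRA, PDGFRB, DCN and THY1 in none. Of 4 endothelial markers at most 1, and of 5 immune markers exactly 1 (CD14), was open in a library. KDR was open in both ZnCl2 and neither TPA library, a pattern of 0.614% of all genes. PTPRC, CD3E, PECAM1, CDH5 and VWF were open in none.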

How the data were processed

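Per the study's methods, the authors trimmed reads, aligned them with HISAT2 (version 2.1.0 in the submitters' processing notes, beside FastQC 0.11.8 and SAMtools 1.8) to hg38, and called open regions in each library with HMMRATAC. Column 5 of the deposited lists is a whole-number score from that caller, at least 30 in each list, whose definition is not given in the sources used here. Read counts and depth per library were not analysed here, so no interval or detection limit is given, and the number of regions limits precision. No blacklist was applied here.

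Regions on the 22 autosomes and the sex chromosomes were kept. A start site was the 5′ end of the MANE Select transcript, and it was open where a region covered it. Calls of all libraries that shared at least 1 bp or touched were joined into merged regions. An exact permutation test over libraries, two-sided, was run on percentiles and widths. Scripts (Python 3.11.15, NumPy 2.4.6, SciPy 1.17.1, Matplotlib 3.10.9) were tested on simulated lists.

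The 9 genes and the gene lists were chosen with earlier results of these data known. Regions named in the text are those over a start, the highest-scoring other region of a locus and those open in both libraries of one condition and neither of another, with the remaining regions given for completeness. List genes were named where conditions did not overlap, by the 2 largest differences, and S100A4, KRT8 and KRT5 were added after their values were seen. Some list genes are counted but not reported here by name. Alternative settings are given for the 9 genes and their loci and not for the gene lists. They comprised the upper 50% of each list, lists of equal length, each library left out and pairing by replicate number. They also took in other start sites, wider or narrower loci, other rankings and a coverage rule.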

Additional observations from a re-analysis of the deposited data

How the results depend on the processing

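Recomputed values that moved, by the limits stated at the end of this section, are given here. For single genes these were 2 SNAI2 differences with the upper 50% of each list. TPA minus control went from 9.40 to 18.8 percentile points and TPA minus ZnCl2 from 14.3 to 28.6. With the upper 50% of each list, the TPA minus control difference in member starts open per library went from 1.5 to -0.5, starts open in both TPA and neither control from 1 to 0, starts with both TPA percentiles above control from 1 to 0 and above ZnCl2 from 2 to 1, starts with both TPA widths below ZnCl2 from 1 to 0, regions open in ZnCl2 and not control from 1 to 0, and in TPA and not ZnCl2 from 5 to 1. With an equal number of regions, TPA minus ZnCl2 went from 1.5 to -1.5 starts, starts open in TPA and not control from 1 to 0, and starts with both TPA widths below ZnCl2 from 1 to 0. Starts open in ZnCl2 and not control, starts open in ZnCl2 and not TPA, and starts with both ZnCl2 percentiles below control each went from 0 to 1. The start open in ZnCl2 alone was that of CDH2, at percentile 0 in the ZnCl2 replicate 2 list, which was not shortened. Regions open in control and not TPA, control and not ZnCl2, and ZnCl2 and not TPA each went from 0 to 1, and those open in TPA and not ZnCl2 from 5 to 1. With 50% coverage, regions open in TPA and in ZnCl2 but not control fell to 0 and 0, and those in TPA and not ZnCl2 to 2. Loci with 50 kb on either side added 1 region open in control and not ZnCl2. Without the widest CDH1 call (chosen after seeing the data), starts and regions open in TPA and not control, and regions open in ZnCl2 and not control, were 0. The cause of these shifts was not tested.

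Leaving out each library in turn, starts open in TPA and not control ranged from 1 to 2, in ZnCl2 and not control from 0 to 1, in control and not ZnCl2 from 0 to 2 and in TPA and not ZnCl2 from 0 to 3. Starts with TPA percentiles above control ranged from 1 to 4 and below from 0 to 2, with ZnCl2 above control from 0 to 1 and below from 0 to 2, and with TPA above ZnCl2 from 2 to 4 and below from 0 to 2. For widths the ranges were 0 to 3 (TPA above control), 1 to 5 (below), 0 to 1 (ZnCl2 above control), 0 to 1 (below), 0 to 1 (TPA above ZnCl2) and 1 to 3 (below). Regions ranged from 1 to 12 (TPA and not control), 0 to 1 (control and not TPA), 0 to 2 (ZnCl2 and not control), 0 to 6 (control and not ZnCl2) and 5 to 15 (TPA and not ZnCl2). The extremes came without control replicate 2 (12 regions), without ZnCl2 replicate 1 (15), and without control replicate 1 (6 regions and 5 narrower TPA starts). Without TPA replicate 2 the region open in ZnCl2 and not control was lost (0).

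Pairing by replicate number is not given by the labels, and deviations of same-numbered libraries correlated at 0.17 (TPA and control), -0.46 (ZnCl2 and control) and -0.13 (TPA and ZnCl2) over 8613 genes. With the replicate block, counts averaged over the pairs were 2 starts open in TPA and not control, 0.5 in control and not TPA, 2 in ZnCl2 and not control, 2 in control and not ZnCl2, 2 in TPA and not ZnCl2 and 0.5 in ZnCl2 and not TPA, with 3 starts higher in TPA than control in both pairs. Regions in the same paired comparisons numbered 7, 1, 5, 9, 10.5 and 0.5. Crossed pairing, added after seeing the data, gave 1 start open in ZnCl2 and not control, 1 in control and not ZnCl2, 2 in TPA and not ZnCl2 and 0.5 the reverse, 2 starts lower in ZnCl2 than control, 2 narrower in TPA than ZnCl2, and 5.5, 10.5 and 0.5 regions (control and not ZnCl2, TPA and not ZnCl2, ZnCl2 and not TPA). Of 409 recomputed counts and differences in counts, 332 stayed within 1.5 times or 1 SD, and of 258 recomputed differences for single genes 256 stayed within 1 SD, an SD that rests on 2 libraries per condition. None of those 258 reversed a difference whose groups did not overlap. Many of these values could not change. Leaving out a library of the third condition cannot move a start-site comparison, pairing keeps a difference in means, and other rankings keep widths. Values within 1 SD include changes of sign, as for VIM between TPA and control (8.58, and -2.23 without control replicate 1). The tally is therefore not a measure of stability.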
